A study of Mus musculus with 36 samples.

Results

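S100β-GFP+;NG2-dsRed+ perisynaptic Schwann cells (PSCs) were compared with the cells sorted as S100β-GFP+ alone, across all genes of the count table. Libraries were chosen by their labelled cell type, which gave 9 PSC and 8 S100β-GFP+ libraries, or 17 of the 27 libraries with a column in the table. The labels name 36 samples, and 24 of them carry one of these 2 cell types. The series' design text counts 7 S100β-GFP+ replicates, 1 fewer than the columns. By the study's methods samples that failed were removed, so one of the 8 libraries used here may be a sample left out there, and which one is not stated. The 10 NG2-dsRed+ libraries of the same table served as a reference for levels. They were also part of the main fit, and so of its filter, its normalization and its estimate of the spread. Both cell types came from S100β-GFP;NG2-dsRed double transgenic mice, in which GFP is driven by the S100b promoter and dsRed by the promoter of Cspg4, the gene encoding NG2. Diaphragm, pectoralis, forelimb and hindlimb muscles were dissociated, cells were isolated by FACS and checked by microscopy and by qPCR of both reporters, and cDNA was amplified with the SMART-Seq v4 kit. The study's methods give ages of P15 to P21 and one mouse per replicate. The age label of each library starts at P15, and its upper end rises by 1 day with each library number from P21 up to P46 and then stays there, so these labels may be a filled series rather than ages.

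Schwann cells derive from the neural crest and ensheath peripheral axons, and those that wrap larger axons build the myelin sheath. PSCs are the non-myelinating Schwann cells that cover the nerve terminal at the neuromuscular junction (NMJ), where they sense transmitter release, support the synapse and guide regrowing axons after injury. Transcription factors such as Sox10 and receptors such as Erbb3 are shared by the whole lineage, whereas genes of compact myelin are raised in cells that myelinate.

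Depth was similar in both cell types. Counts assigned to genes ranged from 5334916 to 9592875 per PSC library (median 7487157) and from 5221655 to 9411399 per S100β-GFP+ library. Levels are given as counts per 1000000 after TMM normalization (CPM), and intervals and floors cover counting error only, since PCR copies were not told apart. A few libraries stood apart before any comparison. S100β-GFP+ libraries 14, 17 and 22 had counts on 25890, 29103 and 38568 genes, against 19669 to 23292 in the other 5, and PSC library 18 had counts on 14616 genes against 20203 to 22533 in the other PSC libraries. Summed chondrocyte and bone markers reached 5726 CPM in PSC library 31, and the next PSC library had 241 CPM. Lars2, Gm23935 and Gm15564 together took 3.64% to 36.57% of the counts in PSC libraries and 19.47% to 39.08% in S100β-GFP+ libraries. Results that rest on these libraries are given with and without them.

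The reporters' own genes were measured first. Cspg4 ranged from 503 to 965 CPM in PSCs with a median of 718 CPM, and from 34.5 to 148 CPM in S100β-GFP+ cells with a median of 53.5 CPM. No S100β-GFP+ library reached the lowest PSC library, and the NG2-dsRed+ median was 667 CPM. The log2 fold change was 3.28 (SE 0.27, adjusted p = 2.31e-11, edgeR's quasi-likelihood test with Benjamini-Hochberg adjustment over all genes, as for every adjusted p given here), and 4.00 without S100β-GFP+ libraries 14, 17 and 22. S100b, a calcium-binding protein of glia, had a lowest value of 57.0, a median of 160 and a highest value of 566 CPM in PSCs. Its values in S100β-GFP+ cells were 9.88, 30.5 and 40.9 CPM, again with no overlap. S100b was thus lower in the cells sorted for its promoter alone than in PSCs (log2 fold change 3.12, SE 0.50, adjusted p = 5.43e-06), and its NG2-dsRed+ median was 5.43 CPM. Within PSCs its level moved with the share of Lars2, Gm23935 and Gm15564, at 57.0, 75.5 and 67.8 CPM in libraries 6, 23 and 31 (31.48% to 36.57%) and 336 to 566 CPM in libraries 4, 12, 20 and 36 (3.64% to 9.66%). With that share as a term in the fit its change was 1.67 (adjusted p = 5.24e-06), and the part of the share was not tested further.

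As a list, genes shared by the Schwann cell lineage had a larger median change than either reporter's own gene. S100b is itself a member of this list, and Dhh changed less than both. Of 10 pan-Schwann cell genes 9 were tested and all 9 were higher in PSCs, with a median log2 fold change of 4.47 against 0.04 for all genes tested (22.9% of all genes were called higher, 24.1% lower). With Sox10 set equal in every library this median was -0.86. Summed over the list, PSC libraries held 3115 to 4405 CPM (median 3446), S100β-GFP+ libraries 112 to 563 CPM (median 221) and NG2-dsRed+ libraries 49.1 to 126 CPM. Sox10, the transcription factor needed for the glial lineage, ranged from 379 to 703 CPM in PSCs (median 467) and from 5.57 to 38.8 CPM in S100β-GFP+ cells (median 16.9). The groups lay far apart, and Sox10 had a log2 fold change of 4.65 (SE 0.37, adjusted p = 1.46e-11). Foxd3, a neural crest factor, and Cdh19, a cadherin of Schwann cell precursors, had the largest changes of the list, 5.24 and 5.01. Dhh, the hedgehog ligand by which Schwann cells act on the perineurium, was the only member with overlapping libraries (1.51, adjusted p = 0.00314). Every S100β-GFP+ library thus held lineage transcripts above the lowest NG2-dsRed+ libraries but at a small part of the PSC level. In bulk sorts such as these, fewer cells of a type and less RNA per cell cannot be told apart.

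Across the transcriptome 15330 genes were tested and 7198 differed (47.0%). Of these, 3511 were higher and 3687 lower in PSCs, with 8106 genes at an unadjusted p under 0.05. These calls were 22.9% and 24.1% of all genes tested, the shares beside which counts of each list are given. Large differences were mostly decreases, since 730 genes were at least 4-fold higher (4.76%) and 1596 at least 4-fold lower (10.4%). When the 4-fold threshold was itself tested, 363 and 1014 genes passed. Every PSC library lay above every S100β-GFP+ library for 803 genes (5.24%) and below for 1579 genes (10.3%). Among protein-coding genes 3096 of 13010 were higher and 3392 lower, while of 276 lincRNAs 75 were higher and 44 lower. These counts were also taken with other genes held equal between libraries, in fits of both sorts without NG2-dsRed+ libraries. With TMM such a fit gave 2895 genes higher and 3157 lower. When the pan-Schwann cell genes were scaled to the same mean level in every library, the median of all genes was -3.59. Of 14369 genes tested, 116 remained higher (0.807%) and 13861 were lower (96.5%). With Sox10 alone held equal the median was -5.06 and the split was 28 higher and 14135 lower. The first scaling asks whether a gene is higher relative to the mean level of the 10 pan-Schwann cell genes. It measures Schwann cell RNA only if these genes are equal per Schwann cell in both sorts, which was not tested. It is called pan-Schwann scaling here. Unless it is named, fold changes are TMM values, and of 7366 genes with a TMM value between 0 and 3.59, 7346 were negative with it.

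Of the 12 protein-coding genes with the largest increases, named by rule, 11 are given here, and the rule takes only genes without overlap between the sorts. Ajap1, a transmembrane protein of adherens junctions (chr4:153373221-153482811, GRCm38), led with a lowest value of 382, a median of 457 and a highest value of 562 CPM in PSCs. In S100β-GFP+ cells it had 0.35, 1.11 and 5.43 CPM, so its lowest PSC library was many times above every S100β-GFP+ library, and the NG2-dsRed+ median was 8.18 CPM. The log2 fold change was 7.99 (SE 0.41, adjusted p = 5.68e-15), and it was 8.78 without S100β-GFP+ libraries 14, 17 and 22. Slitrk3 (7.68) encodes an adhesion protein of synapses, and Col20a1 (7.53) a fibril-associated collagen. Col20a1 (chr2:180986535-181018363) was among the most abundant of them, with 1085 to 2137 CPM in PSCs against 2.63 to 15.3 CPM in S100β-GFP+ cells.

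Enzymes were among the others. Cpm, the membrane carboxypeptidase M (chr10:117629500-117687352), ranged from 1372 to 2177 CPM in PSCs (median 1937) and from 3.48 to 29.6 CPM in S100β-GFP+ cells (median 8.67). Its NG2-dsRed+ median of 134 CPM lay between the sorts, and the log2 fold change was 7.22 (SE 0.43, adjusted p = 8.35e-14). Bche, which encodes butyrylcholinesterase (chr3:73635808-73708415), ranged from 408 to 1566 CPM in PSCs (median 962) and from 2.26 to 16.6 CPM in S100β-GFP+ cells. The groups did not overlap, and the change was 7.24 (SE 0.42, adjusted p = 4.98e-14). Prima1 (6.67), the membrane anchor of acetylcholinesterase and butyrylcholinesterase, rose with it, from a median of 1.10 CPM in S100β-GFP+ cells to 106 CPM in PSCs. Cholinesterases break down acetylcholine, the transmitter of the NMJ. Dct (7.31), which encodes a tautomerase of melanin synthesis, and Dhrs2 (6.69), a short-chain dehydrogenase, were also among the 12. Dct varied most between PSC libraries, from 6.58 to 119 CPM, and its change was 7.94 without S100β-GFP+ library 22 and 5.61 with the share of Lars2, Gm23935 and Gm15564 as a term.

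The remaining members were Unc80 (7.17), a subunit of the sodium leak channel complex, C1ql1 (7.10), a secreted synaptic organizer of the C1q family, and Gm2115 (6.68). C1ql1 had a median of 31.5 CPM in PSCs and 0.06 CPM in S100β-GFP+ cells, and its change was 8.10 without S100β-GFP+ library 22 and 8.67 without libraries 14, 17 and 22. Slitrk3 (9.35), Unc80 (8.37), Cpm (8.28) and Bche (8.00) also had larger changes without these 3 libraries. The counts of Col20a1, Dct, Cpm, Unc80, C1ql1, Gm2115 and S100b may include reads of overlapping genes, since it is unknown here whether reads were counted by strand.

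**Figure D1:**
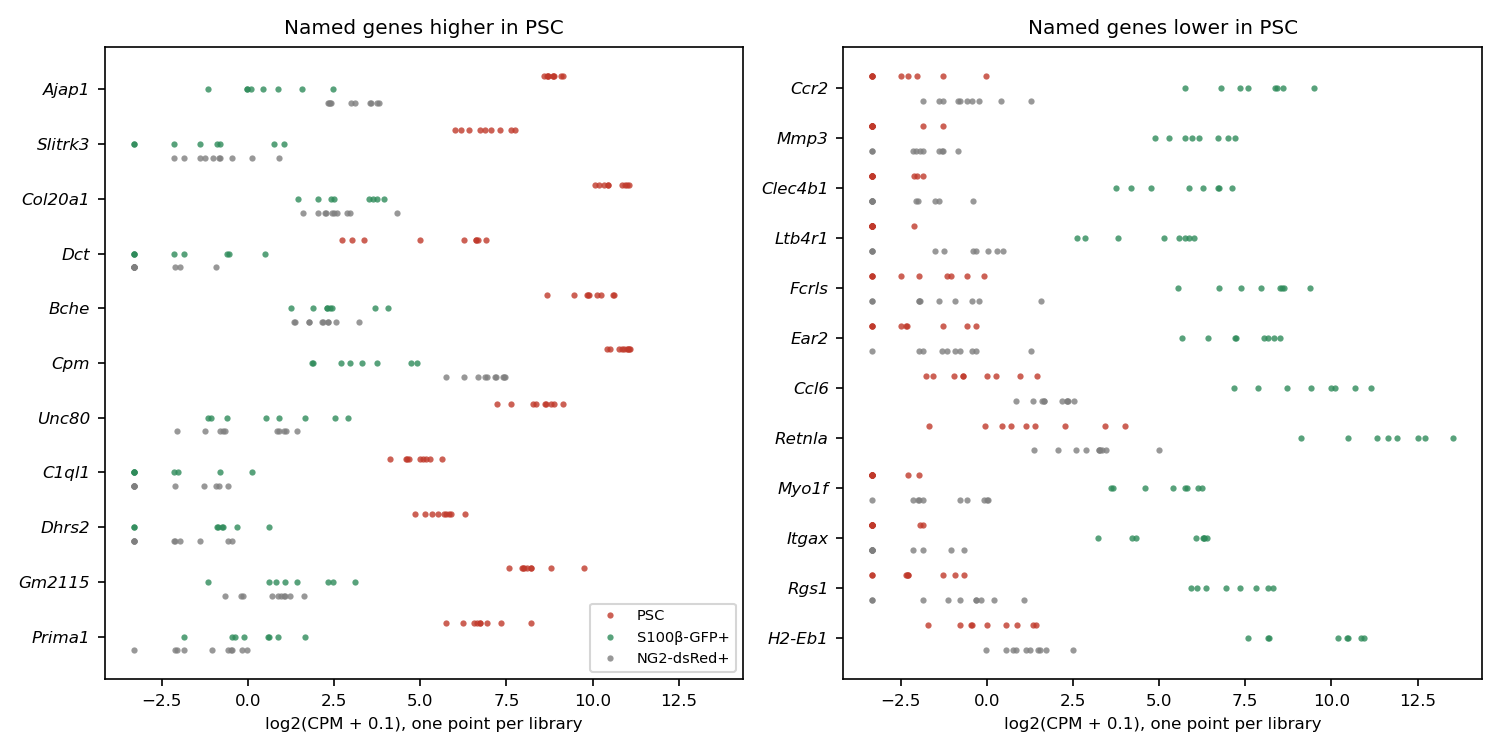
Levels of 23 genes named by fold change, as log2 of CPM + 0.1 with a point per library, for PSC (red), S100β-GFP+ (green) and NG2-dsRed+ (grey) libraries. Red and green points do not overlap because the rule takes only such genes, and NG2-dsRed+ libraries lie near the lower of the other sorts for most of them.

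With pan-Schwann scaling, 116 genes were higher in PSCs, that is, relative to the mean of the genes held equal. The 9 tested pan-Schwann cell genes themselves had a median of 0.74 on this scale, with 4 higher and 1 lower. Values near 1 are thus not far above a typical gene of that list. Foxd3, Sox10 and Erbb3, named below, and Cdh19, counted below among the cadherins, are themselves among the genes held equal. Their values are thus relative to a mean they are part of. All 116 were also called higher with TMM. This largely follows from the construction, since all 14332 genes tested both ways had lower values with the scaling. Of the 116, 91 were protein-coding, 28 were still higher with Sox10 held equal, and for 111 every PSC library lay above every S100β-GFP+ library. All 116 had a lower median in NG2-dsRed+ cells than in PSCs. The named genes kept large values on this scale: Ajap1 4.56 (SE 0.43, adjusted p = 2.08e-10), Slitrk3 4.04, Dct 4.03, Col20a1 3.92, Unc80 3.79, C1ql1 3.75, Bche 3.75 and Cpm 3.67. Others among the 116, chosen after their values were seen, included Slitrk1 (3.06), a synaptic adhesion protein, Ptprz1 (3.01), a receptor phosphatase, and Acsbg1 (3.05), which activates long-chain fatty acids. The adhesion molecules Chl1 (2.21), Cdh10 (1.79), Ncam1 (1.51) and L1cam (1.11) were also among the 116, and 2 of 51 cadherins and protocadherins tested were higher on this scale. Ptprz1 ranged from 266 to 931 CPM in PSCs and from 2.96 to 26.9 CPM in S100β-GFP+ cells. The libraries did not overlap, and Chl1 (189 to 842 against 6.10 to 19.6 CPM) and Kank4 (440 to 1041 against 3.48 to 18.6 CPM), which encodes an actin regulator, were equally separate. The transcription factors Foxd3 (2.01), Pou3f1 (1.52) and Sox10 (1.35) were also in this group, as were the growth factor Pdgfa (1.70), the neuregulin receptor Erbb3 (1.18), the potassium channel Kcnh8 (2.38) and the glutamate receptor subunit Grik2 (1.80).

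Among the 12 genes with the largest decreases, Ccr2 is in the list of macrophage and monocyte markers used here. Itgax and H2-Eb1 are in that of dendritic cell and MHC class II markers. Ccr2, the chemokine receptor of monocytes (chr9:124101950-124113557), ranged from 0 to 0.88 CPM in PSCs (median 0.08) and from 53.5 to 717 CPM in S100β-GFP+ cells (median 262). Its highest PSC value was that of library 18, and the groups lay far apart. The log2 fold change was -10.91 (SE 0.65, adjusted p = 7.90e-14) and -11.67 without PSC library 18. Retnla, a secreted product of alternatively activated macrophages, was the most abundant of the 12, with 551 to 11815 CPM in S100β-GFP+ cells (median 3488) against 0.21 to 16.1 CPM in PSCs (-10.02, SE 0.83, adjusted p = 4.05e-11). The chemokine Ccl6 (-10.06) had a median of 843 CPM in S100β-GFP+ cells and 0.52 CPM in PSCs. Fcrls (-10.13), a scavenger receptor of the Fc receptor family, the ribonuclease Ear2 (-10.11), the signaling regulator Rgs1 (-9.89) and the MHC class II chain H2-Eb1 (-9.79) completed the genes with more than a few counts in PSCs. The other 5 had 1 to 3 counts over all PSC libraries, and for these the ratio of normalized counts is given with its exact counting interval. It was 2170 (742 to 10528) for Mmp3, the matrix protease stromelysin, and 1941 (664 to 9416) for the lectin Clec4b1. It was 3084 (553 to 121866) for the leukotriene receptor Ltb4r1, whose only count in PSCs lay in library 34. For the myosin Myo1f it was 1834 (507 to 15155), and for Itgax, which encodes CD11c, 1502 (513 to 7286). Ear2 has close paralogs, and Ear2, Ccl6 and H2-Eb1 overlap annotated genes, so their counts are uncertain in the same way.

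Myelin genes behaved unlike the pan-Schwann cell genes. Of 22 genes of peripheral myelin 21 were tested, 5 were higher and 2 lower in PSCs (22.9% and 24.1% of all genes), and the median was -0.37. The sums overlapped, with 3935 to 4785 CPM in PSCs (median 4111), 1730 to 4379 CPM in S100β-GFP+ cells (median 3266) and a median of 435 CPM in NG2-dsRed+ cells. Mbp, the basic protein of compact myelin, ranged from 342 to 569 CPM in PSCs (median 372) and from 150 to 688 CPM in S100β-GFP+ cells (median 399). Its libraries overlapped and the difference did not pass the test (0.05, adjusted p = 0.924). Pmp22, a membrane protein of compact myelin and the most abundant member per kilobase, was slightly higher in PSCs (0.70, adjusted p = 0.00226).

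The members that rose strongly were Cmtm5 (4.37), Cadm4 (4.12), an adhesion protein of the Schwann cell surface next to the axon, and Gjc3 (3.31), a connexin. Cnp (1.68), a nucleotidase of non-compact myelin, also rose. Ugt8a, which makes galactosylceramide (-1.58, adjusted p = 0.00852), and Drp2, which links dystroglycan to periaxin (-0.999, adjusted p = 0.0201), were lower. The call of Drp2 ended without S100β-GFP+ library 17 (-0.81, adjusted p = 0.0625), and 4 myelin genes were lower without PSC library 34 but 1 without S100β-GFP+ library 17.

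The summed myelin level divided by the summed pan-Schwann level was 0.94 to 1.54 in PSC libraries (median 1.16), 7.78 to 15.4 in S100β-GFP+ libraries (median 13.9) and 3.65 to 13.4 in NG2-dsRed+ libraries (median 7.45). These ratios did not overlap between PSCs and S100β-GFP+ cells, which the pan-Schwann sums alone bring about, since the myelin sums overlapped. With pan-Schwann scaling 18 of 21 myelin genes were lower and 1 was higher, beside 96.5% of all genes lower, and the median of -3.67 lay close to the -3.59 of all genes. Mbp was at -3.32 (adjusted p = 1.57e-10) and Mag, an adhesion protein of the inner myelin membrane, at -3.87, while Cmtm5 was at 1.00 (adjusted p = 0.00323).

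**Figure D2:**
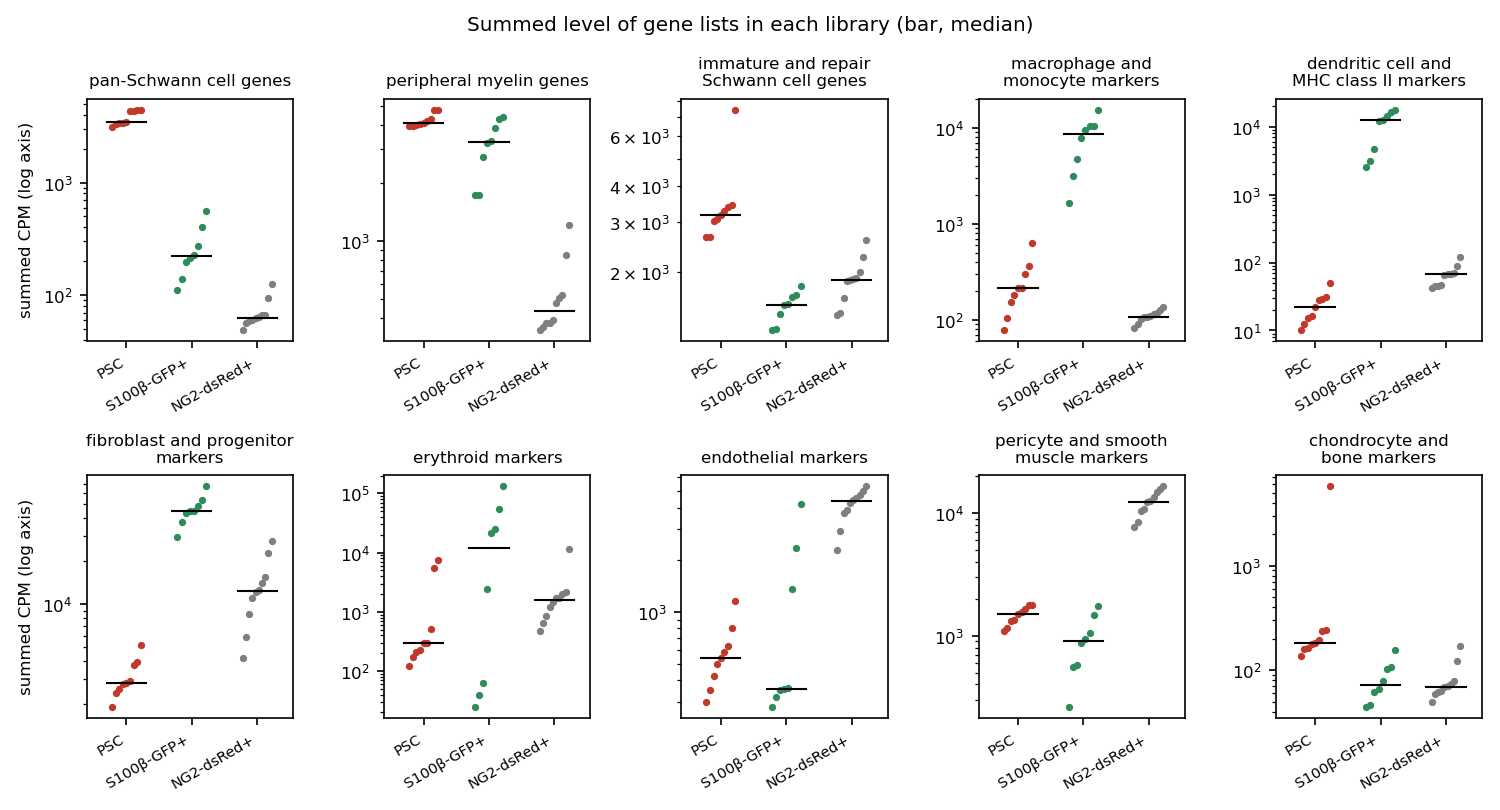
Summed level of 10 gene lists in each library, in CPM on a log axis, with a point per library and a bar at the median of each cell type. Pan-Schwann sums of PSCs (3115 to 4405 CPM) lie above the pan-Schwann sums of both other cell types. Macrophage, MHC class II and fibroblast sums are highest in S100β-GFP+ libraries. Erythroid and endothelial sums vary widely between S100β-GFP+ libraries.

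Genes of immature, non-myelinating and repair Schwann cells moved in both directions. Of 18 genes 13 were tested, 6 were higher and 5 lower (22.9% and 24.1% of all genes). The median was 0.16 (-3.11 with pan-Schwann scaling and 0.77 without S100β-GFP+ library 33). Pou3f1, the factor of promyelinating Schwann cells, ranged from 570 to 3179 CPM in PSCs (median 744) and from 10.2 to 102 CPM in S100β-GFP+ cells (median 28.7). The groups did not overlap and the change was 4.79 (SE 0.46, adjusted p = 5.44e-10). The adhesion molecules Ncam1 (5.01) and L1cam (4.45) of non-myelinating Schwann cells and the progenitor factor Sox2 (3.85) rose as well, Sox2 by 5.32 without S100β-GFP+ library 33. Jun, the factor that drives the repair state, was the most abundant member per kilobase and was higher in PSCs (0.77, adjusted p = 0.000953), though it was lower (-2.89) with pan-Schwann scaling. Ngfr, the low-affinity neurotrophin receptor, had medians of 7.65 and 4.56 CPM and did not pass the test (0.16, adjusted p = 0.809), except without S100β-GFP+ library 33 (1.06, adjusted p = 0.0218). The growth cone protein Gap43 had a median of 0.94 CPM in PSCs and 55.7 CPM in S100β-GFP+ cells. It fell by 3.47, and by 5.64 without PSC library 18, where it stood at 39.9 CPM. Id2, an inhibitor of bHLH factors, fell by 2.69.

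Of 25 ligands and receptors of Schwann cell development 20 were tested, 9 were higher and 6 lower (22.9% and 24.1% of all genes). The median was 0.44 (-3.19 with pan-Schwann scaling). Pdgfa, a growth factor, had the largest increase, from 11.0 to 35.5 CPM in S100β-GFP+ cells (median 17.5) to 500 to 1098 CPM in PSCs (median 698), a change of 5.26 (SE 0.23, adjusted p = 4.50e-16). Its receptor gene Pdgfra, a marker of fibro-adipogenic progenitors, went the other way (-3.77), and so did the vasoconstrictor Edn1 (-3.33). The adhesion G protein-coupled receptors Adgrl3 (4.18) and Adgrg6 (2.98) were higher, the latter required for myelination. The neuregulin receptor pair differed in size, with 4.49 for Erbb3 and 1.40 for Erbb2, and the neurotrophin receptor Ntrk2 (1.76) and the lysophosphatidic acid receptor Lpar1 (1.47) were also higher. With pan-Schwann scaling Erbb2 (-2.34), Lpar1 (-2.30), Ntrk2 (-1.98) and Adgrg6 (-0.50) turned negative, and the last was not called.

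Receptors for neurotransmitters bear on how PSCs sense the synapse. Of 113 such genes only 40 were tested, 13 were higher and 12 lower (22.9% and 24.1% of all genes), with a median of 0.07 (-3.13 with pan-Schwann scaling). The kainate receptor subunit Grik2 had the largest increase (5.03), with 23.1 to 113 CPM in PSCs against 0 to 4.77 CPM in S100β-GFP+ cells. P2ry12, an ADP receptor, was also higher (3.70), with 25.9 to 51.5 CPM in PSCs against 0.99 to 6.51 CPM. The nucleotide receptor P2ry6 (-7.27) and the adenosine receptor Adora2b (-4.52) had the largest decreases among called genes. The adenosine receptor Adora3, not among them, had 3 counts in PSCs (ratio 158, 53.5 to 770). The change of Grik2 was 5.75 without S100β-GFP+ libraries 14, 17 and 22, with 16 genes higher, 10 lower and a median of 0.61. Without single libraries the median ranged from -0.02 (PSC library 23) to 0.45 (S100β-GFP+ library 17).

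Potassium channel genes changed in both directions. Of 80 genes 35 were tested, 9 were higher and 14 lower (22.9% and 24.1% of all genes), with a median of -0.99 that became 0.24 without S100β-GFP+ libraries 14, 17 and 22 (12 higher, 12 lower) and -0.46 with PSC library 18 left out as well (13 higher, 12 lower). The summed level was nevertheless higher in every PSC library, at 1010 to 1717 CPM against 291 to 438 CPM in S100β-GFP+ cells. Most of it came from the voltage-gated subunits Kcna1 and Kcna2. Kcna1 ranged from 302 to 474 CPM in PSCs (median 370) and from 13.9 to 114 CPM in S100β-GFP+ cells (median 42.7). The libraries did not overlap, and the change was 2.93 (SE 0.40, adjusted p = 4.12e-07). Kcna2 had medians of 622 and 43.3 CPM (3.96). Kcnn2, a calcium-activated channel (5.67), and Kcnh8, a voltage-gated channel (5.65), had the largest increases, and the inward rectifier Kcnj10, known from glia, rose by 3.31 on the log2 scale. The subunits Kcne3 (-4.89) and Kcnq1 (-4.33) had the largest decreases among called genes, Kcne3 by 5.68 without PSC library 31. With pan-Schwann scaling Kcna1 (-0.31, adjusted p = 0.274) was not called.

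Calcium and sodium channel subunits were mostly low. Of 40 genes 20 were tested, 2 were higher and 9 lower (22.9% and 24.1% of all genes), with a median of -0.96. Without S100β-GFP+ libraries 14, 17 and 22 there were 4 higher and 8 lower, with a median of -0.38. The sum of the list was 82.6 to 129 CPM in PSCs against 133 to 339 CPM in S100β-GFP+ cells. The increases were those of Cacng5 (4.69), an auxiliary subunit that also modifies glutamate receptors, and Scn2b (1.31), an auxiliary subunit of sodium channels. Without S100β-GFP+ libraries 14, 17 and 22 they were 6.03 and 2.44. Cacnb3 (-3.20) and Scn2a (-3.06), a beta subunit of calcium channels and a pore subunit of sodium channels, had the largest decreases among called genes. Cacna1f, not among them, had 1 count in PSCs (ratio 144, 25.1 to 5741).

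Cadherins and protocadherins, which join like cells, were more often higher than lower. Of 92 genes 59 were tested, 21 were higher and 4 lower (22.9% and 24.1% of all genes). The median was 0.76 (-2.72 with pan-Schwann scaling). Without S100β-GFP+ libraries 14, 17 and 22 there were 26 higher and 3 lower, with a median of 1.27. Cdh10 (5.11) rose most, by 6.12 without S100β-GFP+ library 22, followed by Cdh19. Cdh4 (-2.66, or -1.98 without S100β-GFP+ libraries 14, 17 and 22) and Cdh23 (-1.76) had the largest decreases among called genes. The call of Cdh23 ended without S100β-GFP+ libraries 14, 17 and 22 (-0.33, adjusted p = 0.653). Cdh5, the cadherin of endothelium and the most abundant member per kilobase, is given with the endothelial markers.

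Basement membrane genes also went both ways. Of 23 genes 21 were tested, 6 were higher and 7 lower (22.9% and 24.1% of all genes), the median was -0.20, and the sums overlapped. Without S100β-GFP+ libraries 14, 17 and 22 the median turned positive (0.66), with 9 higher and 6 lower. Agrn, the organizer of the postsynaptic membrane at the NMJ, ranged from 148 to 393 CPM in PSCs (median 293) and from 20.2 to 91.3 CPM in S100β-GFP+ cells (median 23.2). Its libraries did not overlap, and the change was 2.95 (SE 0.29, adjusted p = 1.23e-09) and 3.83 without S100β-GFP+ libraries 14, 17 and 22. The nidogens went opposite ways, since Nid2 was higher (2.63) and Nid1 lower (-2.58, medians 293 and 1480 CPM). Lama2, a laminin chain of muscle and Schwann cells, was lower too (-1.92). Col4a1 (1.07) and Col4a2 (1.30), the chains of the most common type IV collagen, were higher, by 2.07 and 2.30 without those libraries. With pan-Schwann scaling Agrn (-0.66, not called), Nid2 (-0.94), Col4a1 (-2.49) and Col4a2 (-2.27) were negative.

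Interstitial collagens had a higher summed level in the S100β-GFP+ sort. Of 20 genes, all tested, 7 were higher and 10 lower (22.9% and 24.1% of all genes). The median was -1.35 (-0.65 without S100β-GFP+ libraries 14, 17 and 22). The sum was 4769 to 8147 CPM in PSCs and 23876 to 51043 CPM in S100β-GFP+ cells, without overlap. Col3a1, a fibril-forming collagen of soft tissue, ranged from 279 to 1128 CPM in PSCs (median 577) and from 8646 to 20773 CPM in S100β-GFP+ cells (median 14674). The log2 fold change was -4.60 (SE 0.38, adjusted p = 3.36e-11), and Col14a1 fell further (-5.51). Beside Col20a1, Col9a3 (5.09), a chain of cartilage collagen IX, had the largest increase, and it was 4.48 without PSC library 31.

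Transcription factors of 15 families were followed as a list. Of 163 genes 82 were tested, 27 were higher and 21 lower (22.9% and 24.1% of all genes), with a median of -0.09 (32 higher, 16 lower and 0.27 without S100β-GFP+ libraries 14, 17 and 22, and 0.01 without PSC library 4 or S100β-GFP+ library 17). Beside Foxd3, Pou3f1, Sox10 and Sox2, Sox5 was higher (3.25), with 48.6 to 112 CPM in PSCs against 4.75 to 13.2 CPM. Among called genes the T-box factors Tbx5 (-6.41) and Tbx18 (-3.51) had the largest decreases, Tbx5 by 7.64 without PSC library 34. Hes2, not among them, had 0 counts in PSCs and was at least 35.4-fold lower. Egr1, an immediate early factor and the most abundant member per kilobase, did not pass the test (-0.16, adjusted p = 0.523). The same was true of Egr2, the factor of myelination, with medians of 52.9 and 67.5 CPM (-0.37, adjusted p = 0.133), although without S100β-GFP+ libraries 14, 17 and 22 it was lower (-0.60, adjusted p = 0.0211).

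Lipid synthesis genes had medians near 0. Of 23 cholesterol synthesis genes 1 was higher and 4 were lower (median -0.08), and of 17 fatty acid synthesis genes 4 were higher and 4 lower (median -0.05), beside 47.0% of all genes called in either direction. These medians changed sign without S100β-GFP+ library 33 for the first list (0.01) and without PSC library 18 or S100β-GFP+ library 22 for the other (0.01 in both). Of the first list 2 were higher without S100β-GFP+ library 11, and of the other 2 without S100β-GFP+ library 27. Mvd (-1.37) and Insig1 (-1.26), an enzyme and a regulator of the sterol pathway, fell, and the desaturases went apart, with Scd2 higher (0.67) and Scd1 lower (-1.57). Hacd1 (-1.69), an enzyme of very long chain fatty acids, also fell, and Tecr (0.90), which acts in the same pathway, rose. Pmvk (0.77), a kinase of the sterol pathway, lost its call without S100β-GFP+ libraries 14, 17 and 22 (0.61, adjusted p = 0.0900). Ebp, the most abundant of the sterol genes per kilobase, was called lower without PSC library 18 (-0.47) or S100β-GFP+ library 22 (-0.44), beside -0.36 (adjusted p = 0.0875) with all libraries.

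Glycolysis and respiration genes went opposite ways. Of 21 genes of glycolysis and lactate handling 16 were lower and 2 higher in PSCs (24.1% and 22.9% of all genes). The median was -1.04. The lactate exporter Slc16a3 (-4.61) and the hexokinase Hk2 (-3.42) had the largest decreases, while Ldhb (2.60), the lactate dehydrogenase subunit that favours pyruvate, and Pfkm (1.03, or 1.64 without S100β-GFP+ libraries 14, 17 and 22), a phosphofructokinase, were the 2 that rose. Aldoa, an aldolase and the most abundant per kilobase, was slightly lower (-0.45). Of 80 nuclear genes of the respiratory chain 77 were tested, and 43 were higher and 2 lower (22.9% and 24.1% of all genes). The median was 0.73 (-2.91 with pan-Schwann scaling). The count varied more than the median, with 24 higher (median 0.51) without PSC library 36, 15 (0.69) without S100β-GFP+ libraries 14, 17 and 22, and 26 (0.72) in a fit of both sorts only. Both moved with the share of Lars2, Gm23935 and Gm15564, for with that share as a term in the fit 6 were higher, 6 lower and the median was 0.04. The number of lower genes was 5 without PSC library 18 and 1 without most other single libraries, for example PSC library 4. The part of that share in the result was not tested further. Cox6a2 (2.00) and Uqcr11 (1.91), subunits of complexes IV and III, had the largest increases among called genes. Both lost their call with the share as a term (0.97, adjusted p = 0.116, and 0.20, adjusted p = 0.494), and Uqcr11 also without S100β-GFP+ libraries 14, 17 and 22 (1.60, adjusted p = 0.0555). The lower genes were Sdhd (-0.75), a subunit of complex II, and Cox5a (-0.56), of complex IV, whose call ended in most fits without a single library, for example PSC library 4 (-0.50, adjusted p = 0.0722). Atp5k, of the ATP synthase and the most abundant per kilobase, was called higher only without S100β-GFP+ library 3 (2.09, against 1.57, adjusted p = 0.109).

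Cytosolic ribosomal protein genes had a median of -0.02, with 10 of 78 lower and 0 higher (24.1% and 22.9% of all genes). With the share of Lars2, Gm23935 and Gm15564 as a term 63 were lower, beside 3779 of all 15330 genes tested, and the median was -0.65. Without PSC library 4 there were 5 lower. The median turned slightly positive in most fits without a single library (0.13 without PSC library 18, with 2 genes higher). Rps2 (-1.03) and Rpl39l (-2.02) had the largest decreases among called genes, the latter at medians of 0 and 2.17 CPM. The call of Rpl39l ended in most fits without a single library, for example PSC library 4 (-1.95, adjusted p = 0.0540). It was at -3.59 without PSC library 18. Rps29, the most abundant per kilobase, did not pass the test (0.28, adjusted p = 0.723).

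Cell cycle genes were called higher about as often as all genes (22.9%), with 6 of 24 tested genes higher and 0 lower and a median of 0.67 (-2.91 with pan-Schwann scaling). Cenpf (1.82), a kinetochore protein, and Ccnb1 (1.40), the mitotic cyclin B1, had the largest increases. Ccnb1 lost its call without S100β-GFP+ libraries 14, 17 and 22 (1.04, adjusted p = 0.0811), and only 2 genes were then higher. These 3 libraries had sums of 265 to 284 CPM, against 627 to 987 CPM in the other S100β-GFP+ libraries and 506 to 1740 CPM in PSCs. Mki67, the proliferation marker, had medians of 142 and 90.3 CPM (0.80, adjusted p = 0.193), and Pcna, the most abundant per kilobase, was at -0.27 (adjusted p = 0.259).

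Immediate early genes, which dissociation can induce, were high in both sorts. Of 23 genes 12 were lower in PSCs and 4 higher (24.1% and 22.9% of all genes), with a median of -0.67. The sums overlapped (5911 to 22385 CPM in PSCs, 12244 to 15027 CPM in S100β-GFP+ cells). Fos, the most abundant per kilobase, had medians of 2503 and 2734 CPM and did not pass the test (0.19, adjusted p = 0.574). Fosl2 (-2.18) and Klf4 (-2.04) were lower, and Egr3 (1.85) and the heat shock gene Hspa1a (1.12) higher, though with pan-Schwann scaling Egr3 (-1.73) and Hspa1a (-2.43) were lower. Of 24 interferon-stimulated genes 16 were lower and 2 higher (24.1% and 22.9% of all genes), with a median of -1.30. The decreases were led by Oas1a (-4.77) and Mx1 (-4.57), which act against viral RNA. There were 8 lower and 3 higher, with a median of -0.63, without S100β-GFP+ libraries 14, 17 and 22. The 2 higher genes were Ifit2 (0.87), which was at 1.60 without these libraries and at -2.77 with pan-Schwann scaling, and Xaf1 (0.60), whose call ended in several fits without a single library, for example without S100β-GFP+ library 33 (0.52, adjusted p = 0.0863). Ifi27, the most abundant per kilobase, was called higher without PSC library 12 (0.48), 34 (0.47) or 36 (0.47), beside 0.39 (adjusted p = 0.109) with all.

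**Figure D3:**
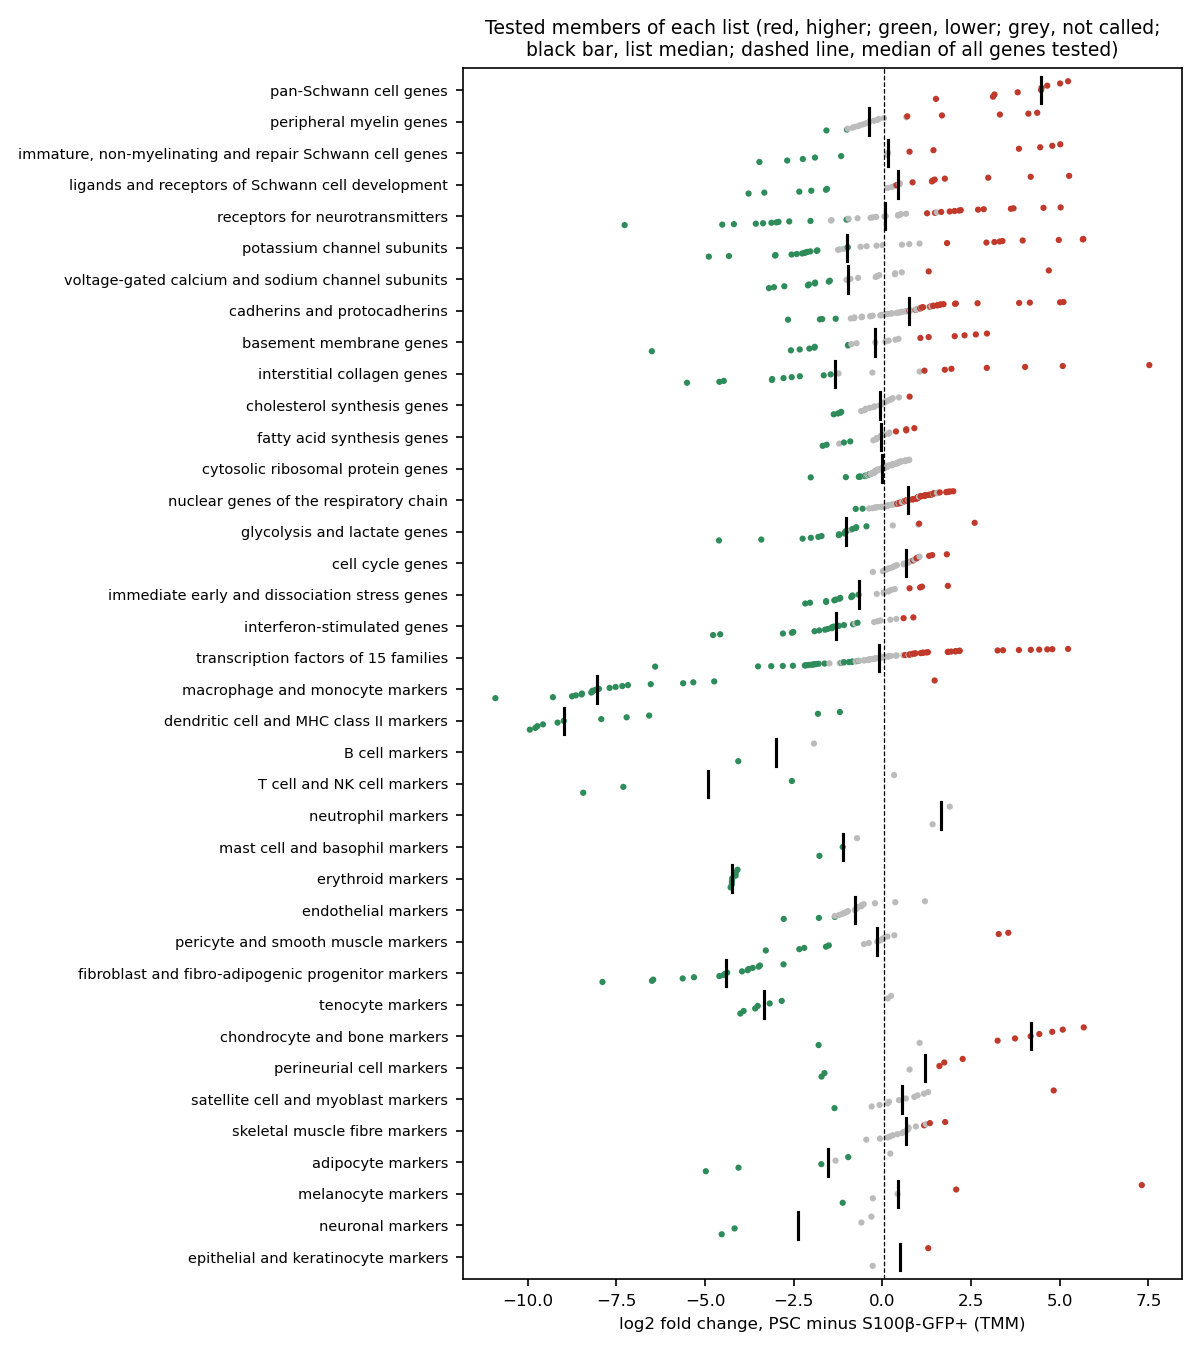
Log2 fold change of each tested member of 38 gene lists between PSCs and S100β-GFP+ cells (TMM), with a bar at the list's median and a dashed line at the median of all genes tested, 0.04. Pan-Schwann cell genes lie to the right, and macrophage, MHC class II and fibroblast markers to the left. With pan-Schwann scaling the median of all genes is -3.59 and nearly all members between 0 and that distance to the right turn negative.

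Markers of other cells of muscle were then measured in both sorts as 20 lists. None of their markers was at 0 in all S100β-GFP+ libraries, apart from olfactory receptors, and markers at 0 in all PSC libraries are named with their lists. Counts of these lists stand beside 22.9% of all genes called higher and 24.1% called lower. The part of these other cells in the differences of other genes was not tested.

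Myeloid RNA was the clearest case. Of 20 macrophage and monocyte markers, all tested, 19 were lower in PSCs by at least 4-fold and without overlap, and the median was -8.04, or -7.84 with genes of few counts at their bound. Their sum ranged from 1655 to 15441 CPM in S100β-GFP+ libraries (median 8685), from 78.1 to 635 CPM in PSC libraries (median 213) and from 81.7 to 136 CPM in NG2-dsRed+ libraries. Lyz2, the lysozyme of myeloid cells and the most abundant marker per kilobase, ranged from 869 to 8898 CPM in S100β-GFP+ cells and from 25.5 to 566 CPM in PSCs (-4.74, SE 0.56, adjusted p = 3.84e-08). C1qb (-9.29), a complement chain, and Csf1r (-7.18), the receptor for colony-stimulating factor, fell further, and Fcgr1, an Fc receptor, had 0 counts in PSCs and was at least 176-fold lower against a floor of 3 counts. Mertk, a receptor for apoptotic cells that other cells of muscle also express, was the exception (1.47, with 38.1 to 85.2 against 13.6 to 34.1 CPM), and it was lower (-2.12) with pan-Schwann scaling. Of 14 dendritic cell and MHC class II markers 11 were tested and all 11 were lower. The median was -8.99 (-8.235 without S100β-GFP+ library 1), and 9 markers were lower without S100β-GFP+ libraries 14, 17 and 22. Their sum was 2538 to 17723 CPM in S100β-GFP+ cells and 10.1 to 50.5 CPM in PSCs. Cd74, the invariant chain and the most abundant of them, had medians of 7049 and 5.58 CPM (-9.57, SE 0.66, adjusted p = 1.08e-12). The 3 libraries that stood apart held less of both lists than the other 5, with 1655 to 4699 against 7795 to 15441 CPM of macrophage markers.

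Other leukocytes were much lower in both sorts. B cell markers summed to 28.9 to 122 CPM in S100β-GFP+ cells and 0.50 to 21.3 CPM in PSCs. Of 10 markers 2 were tested and 1 was lower, Ighm, the immunoglobulin heavy chain (-4.07), while Blk had 0 counts in PSCs. The B cell median was -3.00, or -4.60 without PSC library 4 and -1.70 without S100β-GFP+ library 3. T cell and NK cell markers summed to 28.0 to 131 CPM and 1.14 to 8.23 CPM, with 4 of 17 tested and 3 lower (median -4.93). The most abundant was the adhesion receptor Cd2 (-7.31, and -8.63 without PSC library 4), the cytokine receptor Il7r had 3 counts in PSCs (ratio 532, 182 to 2584), and Cd8a and Ncr1 had none. Neutrophil markers reached at most 10.5 CPM in S100β-GFP+ cells and 24.8 CPM in PSCs, with 2 of 12 tested, 0 called and a median of 1.66 (-1.10 without PSC library 36), S100a9 the most abundant and Ngp at 0 in PSCs. Mast cell and basophil markers were at 7.62 to 60.2 CPM and 2.59 to 22.7 CPM, and 2 of 3 tested genes of 9 were lower (median -1.12), with 0 lower in several fits without a single library, for example PSC library 4, and Cpa3 and Fcer1a at 0 in PSCs. The lower genes were Hdc (-1.78), which makes histamine, and the receptor Kit (-1.12), with calls that ended without PSC library 4 (-1.58, adjusted p = 0.0564, and -0.96, adjusted p = 0.0621) and Hdc at -2.71 without PSC library 36. The most abundant of them, the transcription factor Gata2, is shared with endothelium (-0.72, adjusted p = 0.354, and 1.80, adjusted p = 0.0109, without S100β-GFP+ libraries 14, 17 and 22).

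Fibroblast RNA was present in every S100β-GFP+ library at a high level. All 16 markers of fibroblasts and fibro-adipogenic progenitors were lower in PSCs, at least 4-fold and without overlap, with a median of -4.40. Their sum was 29421 to 66794 CPM in S100β-GFP+ libraries (median 44674), 1911 to 5158 CPM in PSC libraries (median 2796) and 4169 to 27829 CPM in NG2-dsRed+ libraries. Gsn, an actin-severing protein and the most abundant marker per kilobase, ranged from 2820 to 8296 CPM in S100β-GFP+ cells and from 219 to 793 CPM in PSCs (-3.49, SE 0.29, adjusted p = 4.61e-11). Pi16 (-7.89), which marks adventitial fibroblasts, and Dpt (-6.50), which encodes the matrix protein dermatopontin, had the largest decreases, and Col1a1 (-4.47), a chain of type I collagen, was at a median of 9187 CPM in S100β-GFP+ cells. These values did not depend on the 3 libraries that stood apart, since the median was -4.23 without them and all 16 were lower.

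Tenocyte, adipocyte and perineurial cell markers differed in direction. Of 9 tenocyte markers 8 were tested and 6 were lower (median -3.35), with sums of 154 to 1837 CPM in S100β-GFP+ cells and 14.0 to 467 CPM in PSCs. The tenocyte median was -3.99 without PSC library 31 and -2.82 without S100β-GFP+ library 1. Fmod, the most abundant, was at -3.18 (-3.99 without PSC library 31), and Kera (-4.01, or -4.98 without PSC library 34) and Cilp2 (-3.91) fell most. Of 10 adipocyte markers 6 were tested and 4 were lower (median -1.52, or -2.11 without PSC library 31). Their sums overlapped, at 57.9 to 1444 CPM in S100β-GFP+ cells (median 332) and 139 to 1193 CPM in PSCs (median 460). Adipoq (-4.98) and Plin1 (-4.06) fell most, while Cidea and Ucp1 were at 0 in PSCs. Fabp4, the most abundant, is also an endothelial gene and was at 0.22 (adjusted p = 0.763), but at 2.22 (adjusted p = 0.000551) without S100β-GFP+ libraries 14, 17 and 22. Perineurial cell markers were split, with 3 higher and 2 lower of 6 tested of 7, a median of 1.19 (-2.92 with pan-Schwann scaling and 1.89 without S100β-GFP+ libraries 14, 17 and 22) and overlapping sums of 60.5 to 135 CPM in PSCs and 68.3 to 99.1 CPM in S100β-GFP+ cells. Slc2a1, the glucose transporter and the most abundant, was lower (-1.72), the keratin Krt19 lower (-1.64, but -1.45 and adjusted p = 0.0539 without S100β-GFP+ libraries 14, 17 and 22), and the integrin Itgb4 (1.74) and Lypd2 (2.26) higher. Lypd2 lost its call without PSC library 36 (1.58, adjusted p = 0.0689) and was at 3.08 without S100β-GFP+ library 14, and Itgb4 was at 2.37 without S100β-GFP+ libraries 14, 17 and 22.

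Vascular and blood RNA differed between S100β-GFP+ libraries more than between the sorts. Of 19 endothelial markers, all tested, 3 were lower and 0 higher in PSCs, with a median of -0.78 that was 0.02 without S100β-GFP+ library 17. There were 5 lower without PSC library 31 or S100β-GFP+ library 27, and 1 was higher without PSC library 18 or S100β-GFP+ library 17. Without libraries 14, 17 and 22, 15 were higher and 2 lower, with a median of 1.89. These 3 libraries held 1350 to 4217 CPM of endothelial markers and the other 5 held 282 to 360 CPM, against 301 to 1156 CPM in PSC libraries and 2278 to 5316 CPM in NG2-dsRed+ libraries. Cdh5, the most abundant per kilobase, had medians of 129 CPM in PSCs and 41.1 CPM in S100β-GFP+ cells, where it reached 796 CPM. It was at -0.59 (adjusted p = 0.440), and at 2.48 (adjusted p = 1.06e-05) without the 3 libraries, and Pecam1, an adhesion molecule of endothelium, moved from -1.22 (adjusted p = 0.0920) to 1.71. Pecam1 was also called lower without PSC library 31 (-1.53) or without S100β-GFP+ library 27 (-1.40) or 33 (-1.40). Tek, the angiopoietin receptor, was lower in both settings (-2.78, SE 0.28, adjusted p = 1.20e-09), and Vwf, the von Willebrand factor, lost its call without the 3 libraries (0.05, from -1.79).

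Pericyte and smooth muscle markers were a special case, since they include Cspg4. Of 15 genes 2 were higher, Cspg4 and the adhesion molecule Mcam (3.55), and 5 were lower, with a median of -0.14 that was 0.00 without PSC library 4. Their sums were 1088 to 1788 CPM in PSCs, 264 to 1760 CPM in S100β-GFP+ cells and 7681 to 16470 CPM in NG2-dsRed+ cells. Abcc9 (-3.29), a channel subunit of pericytes, and the receptor Pdgfrb (-2.34) had the largest decreases. Without S100β-GFP+ libraries 14, 17 and 22 Pdgfrb was at -1.59 and Mcam at 4.29. Acta2, the smooth muscle actin and most abundant member, had medians of 196 and 223 CPM (-0.14, adjusted p = 0.753). Rgs5, a pericyte marker with a median of 5400 CPM in NG2-dsRed+ cells, stood at 70.7 CPM in PSCs and 172 CPM in S100β-GFP+ cells (-1.59), and its call ended without S100β-GFP+ libraries 14, 17 and 22 (-0.46, adjusted p = 0.224).

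Erythroid RNA varied most. Of 10 markers 9 had a row in the table, 7 were tested and all 7 were lower in PSCs, with a median of -4.24, and 0 were lower without S100β-GFP+ libraries 14, 17 and 22 (median -1.73). Their sum ranged from 25.1 to 131371 CPM in S100β-GFP+ libraries, with at least 21475 CPM in each of these 3 and up to 25068 CPM in the other 5, from 121 to 7410 CPM in PSC libraries and from 473 to 11625 CPM in NG2-dsRed+ libraries. Hbb-bs, a beta globin and the most abundant marker, had 10.7 to 56040 CPM in S100β-GFP+ cells and 45.3 to 2891 CPM in PSCs (-4.14, adjusted p = 0.00728, and -1.36, adjusted p = 0.366, without the 3 libraries). Hba-a1 (-4.24), Alas2 (-4.25), the first enzyme of heme synthesis in red cells, and Slc4a1 (-4.25), the anion exchanger, behaved alike. Without S100β-GFP+ library 17 Hbb-bs was at -3.11 and the others, in this order, at -3.30, -3.25 and -3.59, and without the 3 libraries at -2.04, -0.40 and -1.73. Without PSC library 31 Hbb-bs was at -4.87, Hba-a1 at -5.16, Alas2 at -6.04 and Slc4a1 at -5.48. Globin genes have near-identical copies, so their counts are uncertain.

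The size of the increase of chondrocyte and bone markers rested on a single PSC library. Of 16 genes 9 were tested, 7 were higher and 1 lower, with a median of 4.18, but without PSC library 31 there were 3 higher and 2 lower with a median of -0.09. The sums were 135 to 241 CPM in the other PSC libraries and 44.8 to 155 CPM in S100β-GFP+ cells (median 72.3). Col2a1, the collagen of cartilage and the most abundant marker, had a median of 1.97 CPM in PSCs, 3859 CPM in library 31 and 8.38 CPM as the S100β-GFP+ median (4.79, and -1.97 without that library). Hapln1, a link protein of cartilage matrix, had 217 CPM in library 31 and 0 to 5.89 CPM in the other PSC libraries (5.68), and it did not pass the filter on low counts without that library. Sox9, the factor of chondrocytes, fell by 1.80, or by 2.47 without library 31.

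With all libraries, few muscle fibre and satellite cell markers were called between the sorts. Of 20 fibre markers 17 were tested, 3 were higher and 0 lower, with a median of 0.67 (-3.08 with pan-Schwann scaling) and overlapping sums (298 to 2438 CPM in PSCs, 282 to 965 CPM in S100β-GFP+ cells). Without S100β-GFP+ libraries 14, 17 and 22, 8 were higher, and without a single library there were up to 7 (PSC library 34). Acta1, skeletal actin and the most abundant, did not pass the test (0.43, adjusted p = 0.287), while the giant sarcomere protein Ttn (1.77, or 2.77 without these 3 libraries) and the fast myosin Myh4 (1.34) were higher. Of 12 satellite cell and myoblast markers 1 was higher and 1 lower, with a median of 0.56 (-2.95 with pan-Schwann scaling), and 6 were higher without S100β-GFP+ libraries 14, 17 and 22 (median 1.96), 3 without library 17 alone and 2 without library 22 alone. Their sums were 67.3 to 230 CPM in PSCs and 41.1 to 184 CPM in S100β-GFP+ cells. Megf10, an engulfment receptor that glia also express and the most abundant member, rose by 4.83 on the log2 scale, the adhesion receptor Vcam1 was lower (-1.35), and Pax7, the defining factor, had medians of 4.49 and 2.50 CPM (0.18, adjusted p = 0.791). Without S100β-GFP+ libraries 14, 17 and 22 they were at 5.59, -0.88 (adjusted p = 0.0579) and 1.29 (adjusted p = 0.0460).

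Melanocytes, neurons and epithelia were followed as cells that could share genes with neural crest glia or enter a sort by chance. Of 9 melanocyte markers 5 were tested, 2 were higher and 1 lower (median 0.43, or -3.10 with pan-Schwann scaling), the lower one being Kit (-1.12), with a call that ended without PSC library 4 (-0.96, adjusted p = 0.0621). Dct was the most abundant. Beside Dct, Tyrp1 was higher (2.08, 3.04 without S100β-GFP+ library 1 and 1.67, adjusted p = 0.0538, without libraries 14, 17 and 22), at 0.35 to 37.7 CPM in PSCs, while the melanocyte factor Mitf was at -0.27 (adjusted p = 0.288). Their sums were 47.9 to 182 CPM in PSCs and 35.8 to 54.0 CPM in S100β-GFP+ cells, and the pigment enzyme Tyr had 1 count in all PSC libraries. Of 14 neuronal markers 4 were tested and 2 were lower (median -2.38), Nefm, a neurofilament (-4.53, or -5.22 without PSC library 20), and Uchl1 (-4.17), the most abundant, with sums of 5.22 to 17.3 CPM in PSCs and 15.9 to 46.6 CPM in S100β-GFP+ cells and Chat at 0 in PSCs. Of 10 epithelial markers 2 were tested and the keratin Krt10 was higher (1.29), with a median of 0.51 (-2.97 with pan-Schwann scaling), sums of 12.1 to 49.6 CPM and 10.1 to 21.2 CPM, and Krt5 and Krt14 at 0 in PSCs.

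Olfactory receptor genes are known mainly from sensory neurons of the nose. Of 1092 genes 7 were tested, 2 were lower and 0 higher, with a median of -0.72, and 20 were at 0 in both sorts. The sum was 23.1 to 95.8 CPM in PSCs, 50.2 to 102 CPM in the S100β-GFP+ libraries other than 14, 17 and 22, and 172 to 1151 CPM in those 3. Olfr1033 (-3.03) and Olfr56 (-2.49), which overlaps interferon-induced genes, were the 2 called, the latter not without S100β-GFP+ libraries 14, 17 and 22 (-2.06, adjusted p = 0.0658), and at -4.39 without PSC library 6. Without those 3 libraries 2 genes of the list were higher and 1 lower, with a median of 0.10. Olfr558, an olfactory receptor of pericytes, was the most abundant, with a median of 163 CPM in NG2-dsRed+ cells (-0.72, adjusted p = 0.231, and 1.22, adjusted p = 0.0156, without the 3 libraries).

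Leaving out S100β-GFP+ libraries 14, 17 and 22 gave 3621 genes higher and 3257 lower in PSCs, with a median of 0.16 over all genes, and the genes at least 4-fold higher rose from 730 to 1175. With PSC library 18 left out as well, 4212 were higher and 3587 lower. Of the genes at least 4-fold lower with all libraries, 1522 of 1596 were still called lower without the 3 libraries, and of those at least 4-fold higher 713 of 730 were still called higher. Counts or medians of the endothelial, erythroid, satellite cell, muscle fibre, interferon, olfactory receptor, respiration, cell cycle, potassium channel and basement membrane lists, among others, changed without the 3 libraries, as given with each list. With the share of Lars2, Gm23935 and Gm15564 as a term, calls also ended for Alas2 (-3.22), Vwf (-0.97), Cdh23 (-0.84), Drp2 (-0.79), Kit (-0.71), Lypd2 (1.14), Pmvk (0.53), Xaf1 (0.39), Cox5a (-0.35) and Rpl39l (-1.91), and were made for Egr2 (-0.56), Ifi27 (0.50) and Rps29 (-1.41). Nefm (-6.69), Hk2 (-5.34), Mx1 (-5.57), Edn1 (-3.96), Ighm (-4.68), Cd2 (-8.25), Il7r (-9.28), Fcrls (-10.87), Itgax (-10.60), Ltb4r1 (-11.00) and Clec4b1 (-11.28) had larger and Pdgfrb (-1.75), Fmod (-2.46), Slc4a1 (-3.60), Hbb-bs (-3.52) and Uchl1 (-3.54) smaller decreases in that fit.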

How the data were processed

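RNA was measured by SMART-Seq v4 amplification and sequencing of sorted cells, and the values used here are the counts per gene deposited by the authors, one column per library. According to the submitters' processing notes, which name no versions, reads were aligned to GRCm38 with HISAT2 and counted with HTSeq. Gene coordinates were taken from GENCODE M21, which held 52403 of the 52636 genes of the table (99.56%). Columns were joined to the labels by cell type and replicate number. Replicate pairs were checked for repeated libraries, and the lowest chi-square per degree of freedom was 11.48 for PSC pairs and 12.37 for S100β-GFP+ pairs, with 0 identical columns.

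Counts of all 27 libraries were filtered with filterByExpr (minimum count 10), scaled by TMM and fitted with edgeR 4.0.16 in R 4.3.3. The quasi-likelihood F test was used with Benjamini-Hochberg adjustment over all genes tested and a threshold of 0.05. The code was tested on simulated data. Standard errors were taken from the fold change and its F statistic. Alternatives were DESeq2 1.42.0 size factors and its Wald test, limma 3.58.1 voom with quality weights, other filters on low counts, a fit of both sorts only, the 3 high-share genes left out or their share as a term, pan-Schwann and Sox10 scaling, a test against a 4-fold change, and libraries left out.

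Members and gene lists were chosen with earlier results of these data known. There were 19 lists of glia and functions and 20 lists of other cells. Genes were named by a rule: among protein-coding genes with an adjusted p under 0.05, no overlap between libraries and a mean of at least 20 CPM in the higher sort, the 12 with the largest positive and the 12 with the largest negative fold change. Added to these were Cspg4, S100b and from each list the member with the highest CPM per kilobase of exon, the 2 called members with the largest positive and the 2 with the largest negative fold change. One gene the rule names and some others are not reported here. Other genes were named after their values were seen. For genes with 0 counts in a sort, the fold is a bound against a floor of 3 counts.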

Additional observations from a re-analysis of the deposited data

Results flagged for a closer look

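In each cell type the library farthest from the others was tested by Dixon's rule. This was done for library measures, list sums, the genes with the largest changes named by rule, Cspg4 and S100b. Genes named only from lists, such as Gap43 and Col2a1, were not part of it. Of 136 groups of libraries 10 were flagged, where chance alone gives about 1 in 20. The groups share libraries and are not independent, so the number of flags was not tested against chance. PSC library 18 accounted for 6 of the flags. It had counts on 14616 genes (next PSC library 20203), and summed levels of 7426 CPM for immature and repair Schwann cell genes (next 3428), 1844 CPM for glycolysis genes (next 1319), 11049 CPM for transcription factors (next 7393) and 67.3 CPM for satellite cell markers (next 181). Its Ccr2 level was 0.88 CPM (next 0.31). PSC library 31 had 5726 CPM of chondrocyte and bone markers (next 241), and PSC library 36 had 49.6 CPM of epithelial markers (next 21.0). PSC library 34 held the only Ltb4r1 count of its cell type, at 0.13 CPM. With the other PSC libraries at 0, this flag was fixed by 1 count and says nothing about the library. S100β-GFP+ library 14 had 9.88 CPM of S100b (next 21.4).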

How the results depend on the processing

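DESeq2's Wald test was run on 44705 genes, against 15330 with the filter on low counts, so 2 choices changed at once. It gave 5584 genes lower in PSCs, 4263 differing at least 4-fold and 3292 at least 4-fold lower. Of the 3687 genes lower with edgeR, 3684 were lower in both. Without a filter on low counts 16556 genes differed, 12649 were lower, 11942 differed at least 4-fold, 1215 were at least 4-fold higher and 10727 at least 4-fold lower. With a filter on a mean count of 5, 3563 genes differed at least 4-fold and 2539 were at least 4-fold lower. Tested against a 4-fold change, 1377 genes differed, 363 higher and 1014 lower.

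With pan-Schwann scaling 13977 genes differed, 116 higher and 13861 lower, and 13395 differed at least 4-fold, 55 higher and 13340 lower. With Sox10 scaling 14163 genes differed, 28 higher and 14135 lower, and 14015 differed at least 4-fold, 15 higher and 14000 lower. Among the 183 genes named in the text, 58 changed direction with Sox10 scaling and 47 of them with pan-Schwann scaling too. All 14332 genes tested both with TMM and with the scalings were lower with them, for the middle 90% by 3.44 to 3.79 with pan-Schwann and by 4.80 to 5.31 with Sox10 scaling, so these follow from the construction. The values with pan-Schwann and Sox10 scaling were, in this order, Acta1 -3.28 and -4.74, Adgrg6 -0.50 and -1.93, Agrn -0.66 and -2.06, Atp5k -2.16 and -3.69, Ccnb1 -2.19 and -3.65, Cenpf -1.80 and -3.26, Cnp -1.74 and -3.15, Col4a1 -2.49 and -3.88, Col4a2 -2.27 and -3.66, Cox6a2 -1.61 and -3.00, Cspg4 -0.35 and -1.79, Dhh -1.84 and -3.17, Egr3 -1.73 and -3.25, Erbb2 -2.34 and -3.81, Fabp4 -3.30 and -4.58, Fos -3.54 and -5.02, Gjc3 -0.026 and -1.38, Hspa1a -2.43 and -3.95, Ifi27 -3.39 and -4.91, Ifit2 -2.77 and -4.16, Itgb4 -1.81 and -3.16, Jun -2.89 and -4.35, Kcna1 -0.31 and -1.65, Krt10 -2.36 and -3.86, Ldhb -0.91 and -2.30, Lpar1 -2.30 and -3.85, Mbp -3.32 and -4.67, Mertk -2.12 and -3.52, Mki67 -2.76 and -4.21, Myh4 -2.43 and -3.93, Ngfr -3.11 and -4.54, Nid2 -0.94 and -2.40, Ntrk2 -1.98 and -3.47, Pax7 -3.35 and -4.74, Pfkm -2.65 and -4.10, Pmp22 -2.83 and -4.27, Pmvk -2.87 and -4.32, Rps29 -3.42 and -4.98, S100b -0.34 and -1.83, Scd2 -2.96 and -4.36, Scn2b -2.22 and -3.59, Sox5 -0.45 and -1.95, Tecr -2.84 and -4.34, Ttn -1.85 and -3.30, Tyrp1 -0.92 and -2.26, Uqcr11 -1.75 and -3.33 and Xaf1 -3.10 and -4.56. With Sox10 scaling only they were Adgrl3 -0.73, Cacng5 -0.11, Cadm4 -0.76, Cmtm5 -0.35, Erbb3 -0.19, Kcna2 -0.81, Kcnj10 -1.26, L1cam -0.28, Mcam -1.30, P2ry12 -1.19 and Sox2 -0.58.

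Without S100β-GFP+ libraries 14, 17 and 22, 1175 genes were at least 4-fold higher, and Cdh5 (2.48), Gata2 (1.80), Olfr558 (1.22), Pecam1 (1.71) and Vwf (0.046) turned positive. With PSC library 18 also left out, a setting chosen after seeing the data, there were 1210 such genes, and the values were 2.61, 1.92, 1.12, 1.80 and 0.20. Col2a1 turned negative with DESeq2's Wald test (-1.87), limma-voom (-1.75) and without PSC library 31 (-1.97), which held most of its counts, and was at 5.17 without S100β-GFP+ library 33. Cdh5 turned positive with limma-voom (1.59), and Rps29 negative with the share of the 3 high-share genes as a term (-1.41). The cause was not tested.

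Leaving out each library in turn gave 6825 to 7918 differing genes, 3239 to 4054 higher and 3419 to 3864 lower, 2196 to 2437 differing at least 4-fold, 656 to 830 at least 4-fold higher and 1522 to 1671 at least 4-fold lower. Over all settings, 5167 of the compared values of single genes were much the same, 128 weaker, 44 stronger and the others reversed, and 1039 list medians were much the same and 128 moved. No paired analysis was possible because library numbers are unique and shared by no cell types.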

Other observations

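Counts on mitochondrially encoded genes made up 2.39% to 10.6% of PSC libraries (median 7.61%) and 3.39% to 7.29% of S100β-GFP+ libraries (median 3.99%). Among antisense transcripts, 80 of 316 tested were higher in PSCs and 44 lower, beside 22.9% and 24.1% of all genes, with a median of 0.39 against 0.04. Since the use of strand in counting is unknown here, these may be reads of the sense genes.

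The limits are those of bulk sorts with 9 and 8 libraries. Reads of overlapping genes could not be separated, and duplicates of amplified cDNA were not removed. The age ranges of the labels rise with library number, and age was not used. Levels of other cells' markers are given beside the results, and their part in them was not tested.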
